A study of Mus musculus with 9 samples.

Results

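The 40 genes described here encode the machinery that moves proteins between the endoplasmic reticulum (ER) and the Golgi apparatus: the p24 (Tmed) cargo receptors, the COPI and COPII vesicle coats, further cargo receptors, Arf1 with its exchange factor Gbf1, and 4 SNARE fusion proteins. They were taken by gene name from the deposited table of mouse B16.SIY melanoma cells, and all 40 were present among its 10762 genes. The set was drawn up with the rise of Tmed10 and the fall of ER chaperones against the control hairpin already known. All values of a Decr2 hairpin against the control are therefore given as a description, without p-values, and a gene is named as called there only to state how many passed. The difference between both Decr2 lines was not used to choose the genes and is the comparison that was tested.

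B16.SIY is a mouse melanoma line of strain C57BL/6. Cells of all 3 groups, the control included, express the peptide SIY as a model antigen joined to dsRED. Lentivirus delivered 1 of 3 short hairpin RNAs, and puromycin selection gave stable lines: Decr2 shRNA1, Decr2 shRNA2 and the control shRNA, with 3 libraries each, numbered 0, 1 and 2. Decr2 encodes a peroxisomal 2,4-dienoyl-CoA reductase. No label says that the libraries of a group came from separate cultures or separate infections, so the spread between them may be technical, and a hairpin cannot be told apart from its line.

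Decr2 had deposited log2 values of 2.87, 2.51 and 3.18 with shRNA1, 0.84, 1.18 and 1.55 with shRNA2, and 3.96, 4.10 and 3.71 with the control hairpin. All 6 Decr2 hairpin libraries lay below the control libraries, with 47.6% of the control level left by shRNA1 and 15% by shRNA2. The unlogged values of a library summed to between 969465 and 997650 with the Decr2 hairpins and to between 1014940 and 1045850 in the control, without overlap. The read depth is unknown, so precision rests on the spread between libraries. Of the 9 melanocyte markers, 9 were listed, with unlogged values that summed to between 15596 and 23932 per library with shRNA1, between 15789 and 28704 with shRNA2, and between 21964 and 25090.4 in the control. Of 24 markers of other cell types, 5 had a row (Plvap, Postn, Lck, Pdgfrb and Col1a1), summing to between 25.8 and 38.7 in any library, and no gene of either marker list was called with a Decr2 hairpin.

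COPII vesicles carry newly made proteins out of the ER: the GTPase Sar1 recruits the inner coat of Sec23 and Sec24, which selects cargo, and then the outer coat of Sec13 and Sec31. COPI vesicles form when Arf1 recruits the coatomer complex, and they return escaped ER residents and machinery from the Golgi. The p24 proteins span the membrane, work as mixed complexes of several family members, bind both coats through their tails and are known for carrying GPI-anchored proteins. KDEL receptors retrieve the chaperones of the ER lumen, which the unfolded protein response controls together with many genes of this pathway.

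Promoter sequence, which the selection did not use, was searched for elements of the unfolded protein and amino acid responses. Promoters of 300 bases (250 before to 50 after the start, RefSeq, GRCm38.p6) were matched for 35 of the 40 genes. The letters TGACGTG, the core of the element bound by ATF6 and XBP1, were searched on both strands and stood in 8 of these 35 promoters (22.9%). They stood in 2.22% of all 27025 promoters and in 3.54% of the 8598 promoters of genes in the expression table. Each of these 8 genes also held the longer form TGACGTGG, which was searched after the first count was seen. It occurred in 0.714% of all promoters and in 1.05% of those of genes in the table. The sites are shown with up to 10 bases on each side because they are the element found in several of these promoters, and the capitals mark TGACGTG or its reverse complement on the strand of the gene.
Copb1 (chr7:114254691-114254717, minus strand): cgcccccttcCACGTCAgccaaggact
Copb2 (chr9:98563715-98563741, plus strand): ccggaagttcCACGTCAgtgggttggc
Sec23a (chr12:59011995-59012021, minus strand): tcctccccttTGACGTGgcagaggcgg
Sec24d (chr3:123267460-123267486, plus strand): cccgggcgccTGACGTGgcactagcaa
Kdelr3 (chr15:79516369-79516395, plus strand): gccgccccgcCACGTCAccgcgcggcc
Arf1 (chr11:59228230-59228256, minus strand): cggcaggcgcTGACGTGgctgccgtca
Gbf1 (chr19:46152537-46152563, plus strand): ggctagttacCACGTCAgtgagctgac
Stx5a, first site (chr19:8741424-8741450, plus strand): gcgcagcagcCACGTCAccgagttagg
Stx5a, second site (chr19:8741453-8741473, plus strand): tacgtctaggTGACGTGgcgg

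The carriers of this motif did not move one way: with the hairpins averaged, Copb2 was lower by 0.24 on the log2 scale (SE 0.053) and Stx5a higher by 0.33 (SE 0.10), while the other 6 were not called. The promoter of Tmed10, the gene that stood furthest from the control, did not hold TGACGTG in this window. The full ER stress element (CCAAT, 9 free bases, CCACG) and its second form (ATTGG, 1 free base, CCACG) stood in 0 of the 35 promoters. They stood in 0.137% and 0.0444% of all promoters, and in 0.198% and 0.093% of those of genes in the table. The amino acid response core TGATGNAA stood in 1 promoter (Kdelr1), or 2.86%, against 4.51% of all promoters and 2.57% of those of genes in the table. The short CCACG, which overlaps TGACGTGG on the other strand, stood in 27 (77.1%), against 35.5% of all promoters and 53.7% of those of genes in the table. Tmed2, Tmed7, Arcn1, Kdelr2 and Lman1 were the members without an entry.

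With a Decr2 hairpin, 1 gene of the set stood far above the control, Tmed10, and most others stood slightly below it. With shRNA1, 1 of 40 members was called higher (Tmed10; 6.92% of all genes were) and 6 lower (Tmed2, Tmed5, Tmed7, Tmed8, Copb2 and Lman2; 5.49% of all genes were), at a limma adjusted p under 0.05. With shRNA2, 2 were called higher (Tmed10 and Copg2; 7.27% of all genes) and 7 lower (Tmed5, Copg1, Sec23b, Sec24a, Sec24c, Kdelr2 and Lman2; 5.67%). Called in the same direction with both hairpins were Tmed10, higher (4.54% of all genes), and Tmed5 and Lman2, lower (3.01%). The average of the hairpins gave 3 higher (9.69%) and 10 lower (7.89%), which added Stx5a above the control and Surf4 below it to the genes called with a single hairpin. The authors' deposited table calls the same 7 and 9 members.

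The members' log2 fold changes had a median of -0.14 with shRNA1 and -0.12 with shRNA2, against medians of 0.0018 and 0.0046 over all genes. They were below 0 for 27 of 40 members with shRNA1 (49.7% of all genes) and for 26 with shRNA2 (49.4%), and below 0 with both for 24 (39.8%). Of the members, 37 had a level at or above that of the median gene. Among all genes at or above it, 61.2% with shRNA1 and 59.6% with shRNA2 were below 0, and 8.21% and 8.08% were called lower. The median fold changes of those genes were -0.059 with shRNA1 and -0.045 with shRNA2, so part of the members' offset is shared by genes of such levels. The shares without overlap that follow were counted over all genes only. The libraries of shRNA1 lay outside the control range for 3 members above it (17.3% of all genes) and 18 below it (16.6%). Those of shRNA2 did so for 3 above (20.1%) and 21 below (18.7%). All 6 Decr2 hairpin libraries lay above every control library for Tmed10 and Stx5a (12.0% of all genes) and below for 16 members (10.9%).

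The libraries numbered 0 deviated together, while the deviations did not show that replicates 1 and 2 are paired by number. With the replicate number as a block, 3 members were called higher and 12 lower with shRNA1, and 4 and 12 with shRNA2. The average gave 4 higher and 17 lower, and both hairpins 3 higher and 7 lower. Over all genes the calls also about doubled under the block, to 13.4% higher and 11.2% lower with shRNA1, 13.4% and 10.6% with shRNA2, 16.2% and 14.1% in the average, and 9.17% and 6.24% with both. All members called without the block stayed called. The block added Tmed3 and Stx5a to the higher side with each hairpin. On the lower side with both hairpins it added Copb2, Copg1, Kdelr2, Sec24a and Surf4. Single libraries carried weight: the 7 lower calls with shRNA2 became 0 without control replicate 1 or 2 or without shRNA2 replicate 1 or 2, and 13 without shRNA1 replicate 0. Over all genes the 5.67% lower became 1.43% and 1.38% without control replicate 1 and 2. They became 1.62% and 1.84% without shRNA2 replicate 1 and 2, and 10.3% without shRNA1 replicate 0. The 6 lower calls with shRNA1 became 2 without control replicate 1 or 2, where the 5.49% of all genes became 1.19% and 1.21%.

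**Figure D1:**
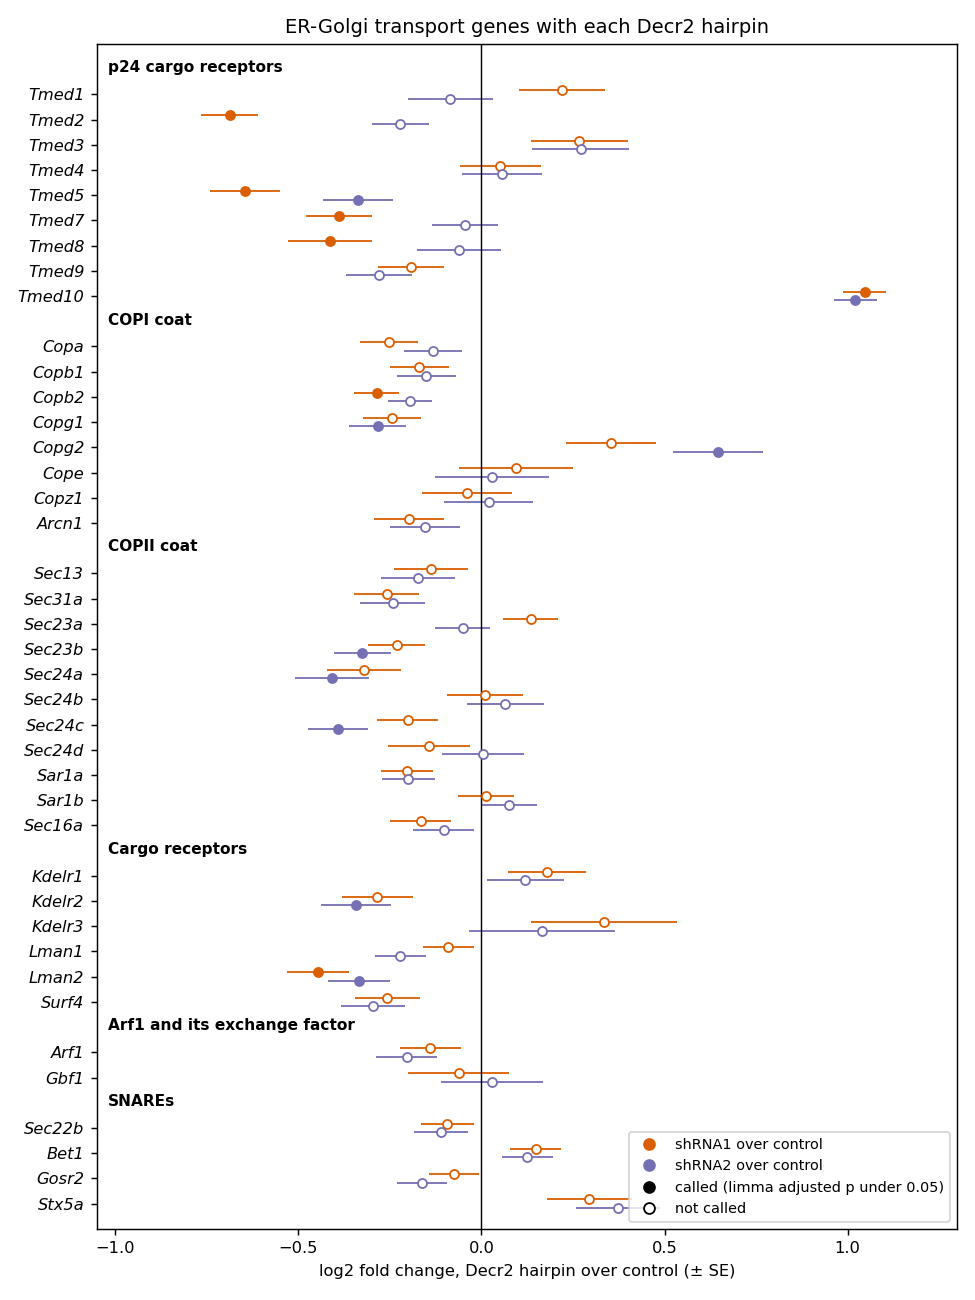
Log2 fold change of each Decr2 hairpin over the control for the 40 genes, grouped by role, with bars of 1 SE and filled points for genes called by limma at an adjusted p under 0.05. Tmed10 stands alone near 1.05 and 1.02, and the largest falls with shRNA1, Tmed2 at -0.69 and Tmed5 at -0.65, are in the same family.

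Of the 9 p24 genes, Tmed10 was called higher with both hairpins (4.54% of all genes were). Called lower were 4 with shRNA1 (5.49% of all genes) and 1 with shRNA2 (5.67%). Tmed10 (p23; chromosome 12, 85340614 to 85374847 on the minus strand, GRCm38) is 1 of the family members that reach the coats through its cytosolic tail. Its log2 values were 8.77, 8.74 and 8.77 with shRNA1, 8.75, 8.74 and 8.71 with shRNA2, and 7.70, 7.71 and 7.73 with the control hairpin. All 6 Decr2 hairpin libraries lay about 1 log2 unit above the control libraries, with no overlap. The difference was 1.05 with shRNA1 (SE 0.059) and 1.02 with shRNA2 (SE 0.059), or 207% and 203% of the control level. Its SD within groups, 0.018 when pooled, was smaller than that of all but 2 genes of the table. It stayed called in all 9 fits that left out 1 library, where the average of the hairpins ranged from 1.03 to 1.04. The rise was known when the set was drawn up, so these fits only describe how little it depended on a single library.

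Neighbouring genes of Tmed10 did not move by the same amount, though Nek9, Fos and Acyp1 also lay above the control with both hairpins. Of those in the table within 100000 bases, Nek9 differed by 0.12 with shRNA1 and 0.098 with shRNA2, Mlh3 by -0.21 and 0.090, Fos by 0.55 and 0.44, and Acyp1 by 0.54 and 0.68. Acyp1 was called with shRNA2 and in the average of the hairpins, at 0.61 (SE 0.13). A processed pseudogene, Tmed10-ps, shares 524 of the 5810 different 31-base words of annotated Tmed10 transcripts (9.02%). It was not among the genes of the table, and its part in the value was not tested.

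Tmed2 (p24; chromosome 5, 124540695 to 124550506 on the plus strand) is a partner of Tmed10 in p24 complexes. Its log2 values were 7.69, 7.81 and 7.88 with shRNA1, 8.27, 8.31 and 8.20 with shRNA2, and 8.58, 8.43 and 8.43 with the control hairpin. The 3 groups did not overlap, with shRNA1 lowest and shRNA2 between it and the control. It was lower by 0.69 with shRNA1 (log2 fold change -0.69, SE 0.078), which was called, and differed by -0.22 with shRNA2 (SE 0.078), which was not. The pseudogene Gm10698, not in the table, shares 574 of its 2540 annotated 31-base words (22.6%).

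Tmed5, another p24 protein, had values of 5.80, 6.00 and 6.06 with shRNA1, 6.26, 6.36 and 6.17 with shRNA2, and 6.47, 6.66 and 6.66 with the control hairpin. Again the groups did not overlap, and shRNA1 was lowest. The log2 fold changes were -0.65 with shRNA1 (SE 0.095) and -0.34 with shRNA2 (SE 0.095). The call with shRNA1 held in all 9 fits without 1 library, whereas the call with shRNA2 held in 2 of the 9, those without control replicate 0 or shRNA1 replicate 0, with fold changes from -0.40 to -0.29. Tmed5 overlaps Mtf2 on the opposite strand, and whether the counting used strand is not given in the sources used here.

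Of the other p24 genes, Tmed7 and Tmed8 were called lower with shRNA1 only, at -0.39 (SE 0.090) and -0.41 (SE 0.12), with -0.045 and -0.061 for shRNA2. Tmed7 was lost without any 1 of the 3 control libraries (fold changes from -0.44 to -0.28 over the 9 fits), and Tmed8 was lost in all fits but those without control replicate 0 or shRNA1 replicate 1 (-0.50 to -0.30). Tmed7 overlaps Ticam2, not in the table, on the same strand, and 808 of its 8704 annotated 31-base words (9.28%) stand in Ticam2 transcripts. Tmed8 overlaps Samd15 on the opposite strand. The part of these overlaps in the values was not tested. Tmed9 differed by -0.19 and -0.28, Tmed3 by 0.27 and 0.27, and Tmed1 by 0.22 and -0.085, none of them called. Tmed4 was 1 of the 3 members nearest to no difference: its values were 7.02, 7.04 and 6.84 with shRNA1, 7.10, 6.97 and 6.86 with shRNA2, and 7.10, 6.73 and 6.92 with the control hairpin. The 3 groups of Tmed4 overlapped throughout, with fold changes of 0.052 and 0.057 (SE 0.11 each), which became -0.041 and -0.037 without control replicate 1.

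**Figure D2:**
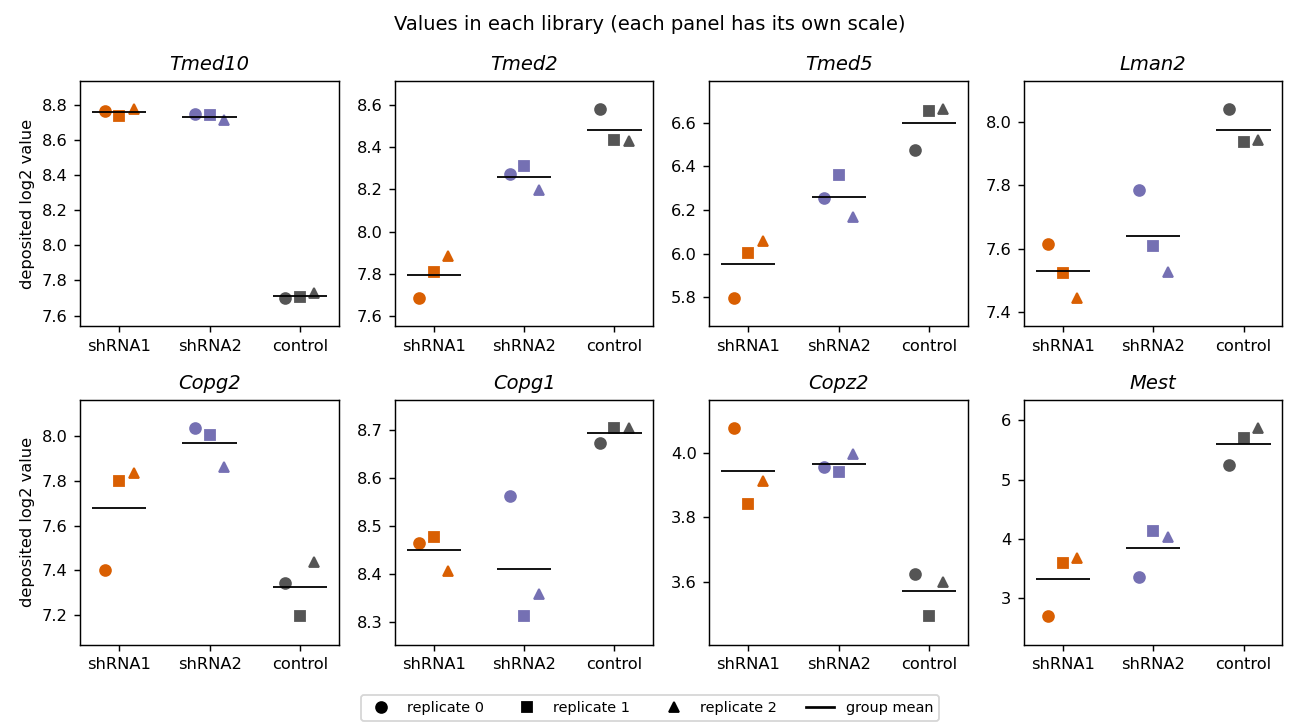
Deposited log2 value in each library for 6 of the genes and for Copz2 and Mest, by group on the horizontal axis, with 1 symbol per replicate number, a line at the group mean and a separate vertical scale in each panel. The 6 Tmed10 values of the Decr2 hairpins sit between 8.71 and 8.77 and those of the control between 7.70 and 7.73, while Tmed2 and Tmed5 step from shRNA1, the lowest, to the control, the highest.

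Between the Decr2 lines, 1 member passed the test, the p24 gene Tmed2. In Tmed2 the shRNA2 libraries lay above the shRNA1 libraries by 0.47 on the log2 scale (SE 0.078, 95% interval 0.29 to 0.64, limma adjusted p = 0.0463; adjusted p = 0.026 with the replicate block). The calls between the lines numbered 1 of 40 higher (0.223% of all genes were) and 0 of 40 lower (0.232%). The size held between 0.41 and 0.51 when 1 library was left out, but the limma adjusted p passed in 1 of those 9 fits, that without shRNA1 replicate 0 (0.0418). It was 0.0514, 0.101 and 0.115 without control replicate 0, 1 and 2, 0.168 and 0.12 without shRNA1 replicate 1 and 2, and 0.101, 0.238 and 0.161 without shRNA2 replicate 0, 1 and 2. It was 0.178 with only the groups compared in the fit and 0.0675 without the intensity trend.

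At an unadjusted p under 0.05 in limma, 5 members were higher with shRNA2 than with shRNA1 (Tmed2, Tmed5, Tmed7, Tmed8 and Copg2; 5.33% of all genes) and 3 were lower (Tmed1, Sec23a and Sec24c; 4.71%). Tmed5 was higher with shRNA2 by 0.31 (95% interval 0.096 to 0.52), Tmed7 by 0.34 (0.14 to 0.55) and Tmed8 by 0.35 (0.092 to 0.61), and none of these passed the adjustment (limma adjusted p = 0.26, 0.19 and 0.306). The groups did not overlap for 6 members that were higher with shRNA2, the p24 genes Tmed2, Tmed5, Tmed7 and Tmed8 with Copb2 and Copg2 (7.72% of all genes). For 4 members that were lower with shRNA2, Tmed1, Sec23a, Sec24c and Lman1, they did not overlap either (6.68%). Tmed10 differed by -0.026 between the lines (95% interval -0.16 to 0.11), and Decr2 itself by -1.66 (SE 0.23). Whether Tmed10 follows the level of Decr2 was not tested.

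In the COPI coat, 1 of 8 genes was called lower with each hairpin (5.49% and 5.67% of all genes were) and 1 was called higher with shRNA2 (7.27%). Copb2 (the beta' subunit) was the one called lower with shRNA1, at -0.29 (SE 0.061), and Copg1 (the gamma1 subunit) with shRNA2, at -0.28 (SE 0.078). The Copb2 call was lost without control replicate 1 or 2 or shRNA1 replicate 1, with fold changes from -0.31 to -0.26, and the Copg1 call in all fits but those without shRNA1 replicate 0 or shRNA2 replicate 0 (-0.36 to -0.23). Copa (alpha), Copb1 (beta) and Arcn1 (delta) had fold changes between -0.25 and -0.13 that were not called, and Cope (epsilon) differed by 0.094 and 0.029. The COPI median was -0.18 with shRNA1 and -0.14 with shRNA2. Copz1 (zeta1) was the member nearest to no difference, with values of 7.71, 7.25 and 7.37 with shRNA1, 7.68, 7.42 and 7.40 with shRNA2, and 7.52, 7.45 and 7.48 with the control hairpin. Both hairpin groups of Copz1 spanned the whole control range, with fold changes of -0.039 and 0.020 (SE 0.12 each).

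Copg2 (the gamma2 subunit; chromosome 6, 30747554 to 30896794 on the minus strand) had values of 7.40, 7.80 and 7.84 with shRNA1, 8.04, 8.01 and 7.86 with shRNA2, and 7.34, 7.19 and 7.43 with the control hairpin. The shRNA2 libraries lay above all control libraries, and replicate 0 of shRNA1 lay within the control range. The fold change was 0.64 with shRNA2 (SE 0.12), which was called, and 0.35 with shRNA1 (SE 0.12), which was not. The call was lost without control replicate 1 or without shRNA2 replicate 1, and the fold changes of the 9 fits ran from 0.58 to 0.70. Copg1, its paralog, had values of 8.47, 8.48 and 8.41 with shRNA1, 8.56, 8.31 and 8.36 with shRNA2, and 8.67, 8.71 and 8.70 with the control hairpin, all 6 Decr2 hairpin libraries below the control.

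The RNA values of the gamma genes lay towards Copg2, with the overlap described below not separated, and protein was not measured. The log2 ratio of Copg2 to Copg1, set to 0 in the control mean, was 0.60 ± 0.26 with shRNA1 and 0.93 ± 0.12 with shRNA2 (SD, n = 3 each), against a control SD of 0.13. All 6 Decr2 hairpin libraries, from 0.30 to 1.06, lay above the control range of -0.14 to 0.10. For this ratio and all those below, it was not counted how often other pairs of genes lie outside the control range. The zeta pair, chosen after its values were seen, lay the same way: the log2 ratio of Copz2, the second zeta subunit, to Copz1 was 0.41 ± 0.11 with shRNA1 and 0.37 ± 0.17 with shRNA2, against a control SD of 0.038. Copz2 had values of 4.08, 3.84 and 3.91 with shRNA1, 3.96, 3.94 and 4.0 with shRNA2, and 3.62, 3.49 and 3.60 with the control hairpin, without overlap.

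The 3' end of Copg2 overlaps the imprinted gene Mest on the opposite strand by 912 bases, and 882 of its 5227 annotated 31-base words (16.9%) stand in Mest transcripts. Mest had values of 2.69, 3.59 and 3.67 with shRNA1, 3.36, 4.14 and 4.03 with shRNA2, and 5.24, 5.71 and 5.87 with the control hairpin. Its fold changes of -2.29 and -1.76 (SE 0.30 each) ran opposite to those of Copg2, and all 6 Decr2 hairpin libraries lay below the control. Without a stated strand setting, reads of the shared stretch cannot be told apart, and their part in the Copg2 value was not tested.

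In the COPII coat, 0 of 11 genes were called higher with either hairpin (6.92% and 7.27% of all genes were). By limma, 0 (shRNA1) and 3 (shRNA2) were called lower (5.49% and 5.67% of all genes). At an unadjusted p under 0.05, 5 were lower with each hairpin (13.6% of all genes with shRNA1 and 13.5% with shRNA2) and 0 higher (15.1% and 15.8%). The 3 called with shRNA2 were the cargo-selecting subunits Sec24a, at -0.41 (SE 0.10), and Sec24c, at -0.39 (SE 0.083), and Sec23b, at -0.33 (SE 0.078). With shRNA1 these had fold changes of -0.32, -0.20 and -0.23. Each of these 3 calls was lost without control replicate 1 or 2 or shRNA2 replicate 1 or 2, those of Sec24a and Sec24c also without control replicate 0, and that of Sec24a also without shRNA2 replicate 0. Their fold changes in the 9 fits without 1 library ran from -0.44 to -0.37 (Sec24a), -0.43 to -0.34 (Sec24c) and -0.39 to -0.27 (Sec23b). The group medians were -0.17 with each hairpin. Sec31a, of the outer coat, differed by -0.26 and -0.24, and its partner Sec13 by -0.14 and -0.17. The scaffold gene Sec16a differed by -0.17 and -0.10.

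Paralogs of the COPII coat differed among themselves. The ratio of Sec23b to Sec23a, on the log2 scale and relative to the control mean, was -0.37 ± 0.13 with shRNA1 and -0.27 ± 0.076 with shRNA2 (SD, n = 3 each; control SD 0.050). That of Sec24a to Sec24b was -0.33 ± 0.083 with shRNA1 and -0.47 ± 0.036 with shRNA2 (control SD 0.076). That of Sar1b to Sar1a was 0.22 ± 0.11 with shRNA1 and 0.27 ± 0.15 with shRNA2 (control SD 0.064). For these pairs all 6 Decr2 hairpin libraries lay outside the control range, whereas for Sec24c to Sec24d the shRNA2 libraries lay below the control range and the shRNA1 libraries overlapped it (-0.058 ± 0.056 with shRNA1, -0.40 ± 0.16 with shRNA2, control SD 0.080). Sec24a and the GTPase gene Sar1b lie head to head on chromosome 11 with 52 bases between their GENCODE limits. Sar1b nonetheless differed by 0.013 and 0.075 (SE 0.077 each), against -0.32 and -0.41 for Sec24a.

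Among the other cargo receptors, Lman2, a lectin that binds glycoproteins with high-mannose sugars, was called lower with both hairpins. Its values were 7.62, 7.52 and 7.44 with shRNA1, 7.79, 7.61 and 7.53 with shRNA2, and 8.04, 7.94 and 7.94 with the control hairpin. All 6 Decr2 hairpin libraries lay below the control, by 0.45 (log2 fold change -0.45, SE 0.085) with shRNA1 and by 0.33 (-0.33, SE 0.085) with shRNA2. The call with the average of the hairpins held in all 9 fits that left out 1 library. The call with shRNA1 was lost without control replicate 1 or 2, with fold changes from -0.49 to -0.40 over the 9 fits. The call with shRNA2 was lost without any 1 of the control libraries, shRNA1 replicate 1 or shRNA2 replicate 1 or 2, with fold changes from -0.41 to -0.28.

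The KDEL receptors did not move together. Kdelr2 was called lower with shRNA2, at -0.34 (SE 0.096), and differed by -0.28 with shRNA1. The call held only without shRNA1 replicate 0 or shRNA2 replicate 0 among the 9 fits that left out 1 library, with fold changes from -0.44 to -0.29. Kdelr1 differed by 0.18 with shRNA1 and 0.12 with shRNA2. The log2 ratio of Kdelr2 to Kdelr1 was -0.46 ± 0.10 with shRNA1 and -0.46 ± 0.030 with shRNA2 (SD, n = 3 each), against a control SD of 0.12, and no Decr2 hairpin library reached the control range. Kdelr3 differed by 0.33 and 0.17 with the widest error of the set (SE 0.20). All 13 of the 13 listed ER chaperones and folding proteins were called lower with each hairpin (5.49% and 5.67% of all genes were), with medians of -0.70 and -0.66. Their fall was known before the lists were chosen, so this count is a description and not separate support. Surf4, a receptor for soluble secreted proteins, differed by -0.26 and -0.30 and was called in the average of the hairpins, at -0.28 (SE 0.077), a call that held only without shRNA1 replicate 0 or shRNA2 replicate 0 among the 9 fits (-0.32 to -0.23).

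Lman1 (ERGIC-53), a lectin that exports clotting factors with the help of Mcfd2, differed by -0.091 with shRNA1 and -0.22 with shRNA2 (SE 0.069 each). Mcfd2, which is not one of the 40, was higher, with values of 5.98, 6.02 and 5.99 with shRNA1, 5.83, 5.97 and 5.93 with shRNA2, and 5.57, 5.44 and 5.36 with the control hairpin. The log2 ratio of Mcfd2 to Lman1, a pair chosen after its values were seen, was 0.63 ± 0.095 with shRNA1 and 0.67 ± 0.076 with shRNA2, against a control SD of 0.081. The corresponding ratio of Tmed10 to Tmed2, also chosen so, was 1.73 ± 0.10 with shRNA1 and 1.24 ± 0.041 with shRNA2, against a control SD of 0.095. In both pairs all 6 Decr2 hairpin libraries lay above the control range.

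None of Arf1, Gbf1 and the SNAREs was called with a single hairpin without the replicate block. With the block, Stx5a was called higher with each hairpin and Arf1 lower with shRNA2. Arf1 differed by -0.14 and -0.20 (SE 0.083 each). Gbf1, which loads Arf1 with GTP, had values of 6.82, 7.44 and 7.13 with shRNA1, 7.22, 7.13 and 7.30 with shRNA2, and 7.09, 7.29 and 7.19 with the control hairpin. Replicates 0 and 1 of shRNA1 were the lowest and highest of the 9, so that the groups overlapped, with fold changes of -0.062 and 0.029 (SE 0.14 each). Among the SNAREs, which fuse vesicles with their target membranes, limma called Stx5a higher in the average, at 0.33 (SE 0.10), a call that held only without control replicate 0 or shRNA2 replicate 2 among the 9 fits (0.27 to 0.42) and was lost with median centring. At an unadjusted p under 0.05, Stx5a was higher with each hairpin (0.29 and 0.37) and Gosr2 was lower with shRNA2 (-0.16). Bet1 differed by 0.15 and 0.13 and Sec22b by -0.093 and -0.11.

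**Figure D3:**
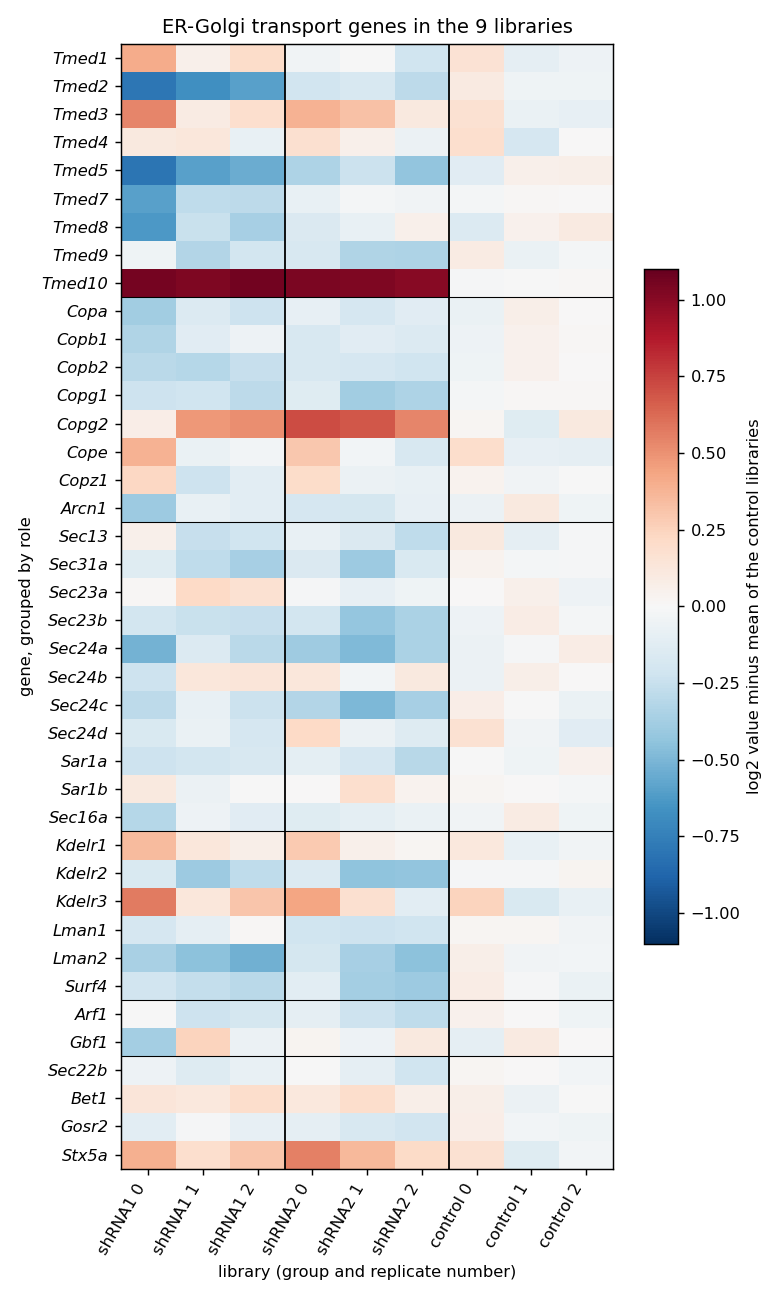
Log2 value of each gene in each of the 9 libraries minus the mean of the control libraries, with genes in rows grouped by role and libraries in columns by group and replicate number. The Tmed10 row is red in all 6 Decr2 hairpin libraries, the Tmed2 and Tmed5 rows are bluest with shRNA1, and replicate 0 columns differ from replicates 1 and 2 of the same group in genes such as Cope and Kdelr3.

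Of 72 further genes of ER-Golgi transport (tethers, Rab GTPases, Arf regulators, TRAPP and COG complexes and others), 68 were in the table. With shRNA1, 2 were called higher (Mcfd2 and Copz2) and 2 lower (Rab1a, -0.23, and Zw10, -0.37), beside 6.92% and 5.49% of all genes. With shRNA2, 2 were called higher (Mcfd2 and Copz2 again) and 2 lower (Gosr1, -0.28, and Sec23ip, -0.39), beside 7.27% and 5.67%. Their median fold changes were -0.023 with shRNA1 and -0.0034 with shRNA2, beside -0.14 and -0.12 for the 40. In the average, 3 were called higher and 3 lower (9.69% and 7.89% of all genes), which became 7 and 4 with the replicate block (16.2% and 14.1%).

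Part of the spread within groups followed the replicate number and the length of the transcript. In the 20 members with the shorter longest transcripts (1201 to 3181 bases), replicate 0 was higher than the mean of replicates 1 and 2, averaged over the groups, in 19, with a median difference of 0.16 on the log2 scale. In the 20 longer ones (3266 to 8797 bases) it was higher in 7, with a median of -0.087. Across the 40 members the difference and the log length had a Pearson r of -0.70 and a Spearman rho of -0.69. Across 10759 genes of the table they were -0.30 and -0.37. Within the groups, r across the members was -0.75 with shRNA1, -0.39 with shRNA2 and -0.63 in the control. Genes share the same libraries here and are not independent replicates.

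The average fold change of the hairpins followed length less closely, with r = -0.25 and rho = -0.36 across the members, and -0.11 and -0.12 across all genes. It had a median of 0.017 in the shorter 20, of which 10 were below 0, and of -0.19 in the longer 20, of which 17 were below 0. The difference of shRNA2 over shRNA1 rose with length, with r = 0.33 and rho = 0.30 across the members, and 0.086 and 0.11 across all genes. Tmed7 (7982 bases) and Tmed8 (7409 bases), which were higher with shRNA2 than with shRNA1, are among the longer 20. The part of transcript length in the lower values and in the difference between the lines was not tested. When the 3 libraries numbered 0 were left out, which was decided after the data were seen, the members called lower with both hairpins numbered 14 and those called higher 3 (Copg2, Stx5a and Tmed10), beside 11.1% and 12.6% of all genes. In the same setting Tmed2, Tmed7 and Tmed8 were called higher and Sec23a lower in shRNA2 than in shRNA1, beside 3.92% of all genes higher and 4.95% lower. Tmed2 differed by 0.41 (limma adjusted p = 0.00468).

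**Figure D4:**
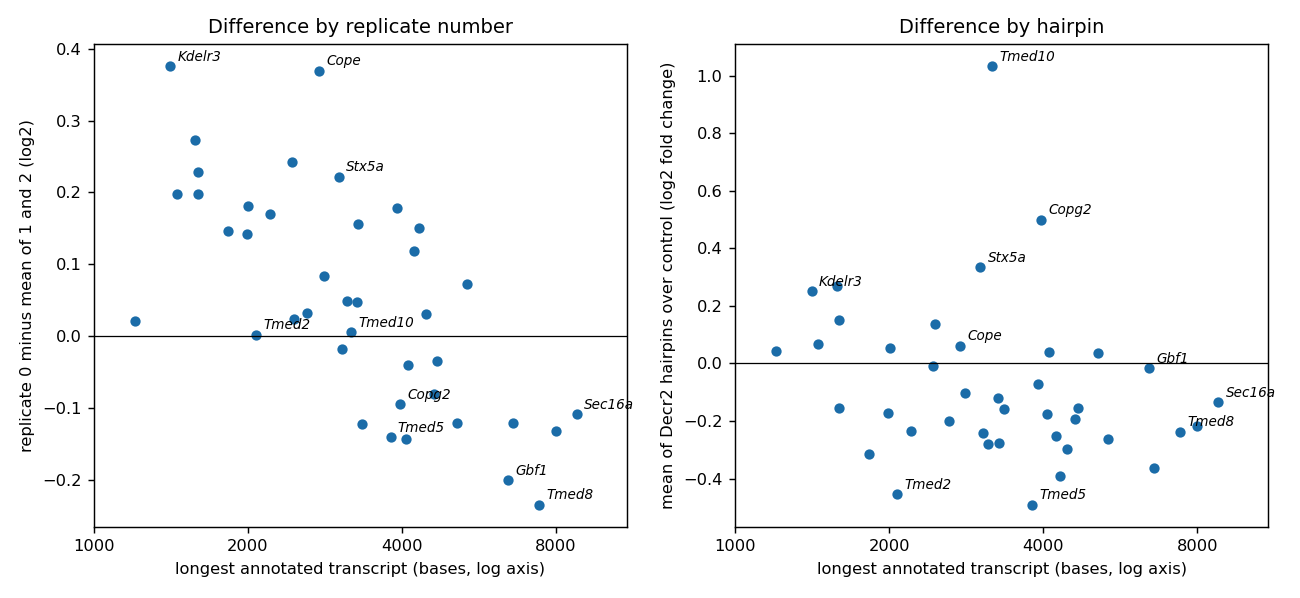
Length of the longest annotated transcript on a log axis against the log2 difference of replicate 0 from replicates 1 and 2 (left) and against the average log2 fold change of the Decr2 hairpins over the control (right), with 1 point per gene. The left panel falls with length (r = -0.70), the right less so (r = -0.25), and Tmed10 stands apart on the right only.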

How the data were processed

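RNA of 9 libraries was sequenced. Per the file headers, the deposited table of the authors holds 1 log2 value per gene and library, beside the authors' own log2 fold changes, scores and p-values per hairpin. Kallisto, FastQC and limma are listed in the submitters' processing notes. No source used here gives the genome build, strand setting or low-value filter, or says whether values are per length. Columns do not spell out the Decr2 hairpin; they were linked to it through the authors' headed fold changes, of which 99.95% (shRNA1) and 99.7% (shRNA2) lay within 0.05 of the difference of the linked columns.

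The log2 values were tested as deposited with limma 3.58.1 (R 4.3.3): 1 mean per group, all 9 libraries, intensity trend (3.3 prior and 6 residual degrees of freedom) and Benjamini-Hochberg adjustment over 10762 genes, called under 0.05. In simulated data of the hairpin average, 87 of 100 changes of 1 and 47 of 100 of 0.5 were recovered, with 4 of 10562 unchanged genes called. The simulated noise was independent between genes and libraries, whereas the real libraries share deviations, so these rates may not hold for the real data. The members and lists were chosen with earlier results of these data known. Every member could be named; values in every library were given for members called with both hairpins or between the lines, and for the 3 nearest to no difference, and those of Copg1, Copg2, Copz2, Mcfd2 and Mest were added after they were seen. Deviations from the group means correlated at 0.126 to 0.644 in 9 of 9 same-numbered pairs, against -0.63 to 0.53 for different numbers. Between replicates 1 and 2 of different groups the correlations were 0.128 to 0.531. They therefore set replicate 0 apart but do not show that 1 and 2 are paired. The block took the pairing from the numbers in the sample titles, as an assumption. Coordinates and transcript lengths are from GENCODE M21 on GRCm38, and 31-base words were compared on both strands. Alternatives were the replicate block, only the groups compared, no trend, median centring, a pseudocount of 1, removal of the lowest 25% of genes, a fold minimum of 0.5 and leaving out each library.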

Additional observations from a re-analysis of the deposited data

Results flagged for a closer look

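Tmed2 was flagged because the Decr2 hairpins differed in their effect on it under the same contrast with the control: the log2 difference of shRNA2 over shRNA1 was 0.47 (SE 0.078, limma adjusted p = 0.0463), from fold changes over the control of -0.22 with shRNA2 and -0.69 with shRNA1. All 3 shRNA2 libraries lay above all 3 shRNA1 libraries. The limma adjusted p was above 0.05 in 8 of the 9 fits without 1 library, where it reached 0.238.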

How the results depend on the processing

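With the replicate block, members called with shRNA1 numbered 3 higher and 12 lower, and with shRNA2 4 and 12. In the average 17 were lower, and with both hairpins 3 were higher and 7 lower. Over all genes the shares were 13.4% and 11.2% (shRNA1), 13.4% and 10.6% (shRNA2), 14.1% lower (average), and 9.17% and 6.24% (both). In the average, 7 further transport genes were higher (16.2% of all genes). Every member call made without the block was kept under it. Without the libraries numbered 0, added after the data were seen, the counts were 4 higher and 17 lower (shRNA1), 4 and 18 (shRNA2), 5 and 19 (average), 3 and 14 (both), 3 and 1 (shRNA2 over shRNA1), and 9 and 11 (further transport genes); over all genes they were 17.6% and 16.9% (shRNA1), 19.2% and 18.1% (shRNA2), 20.9% and 20.5% (average), 12.6% and 11.1% (both), and 3.92% and 4.95% (shRNA2 over shRNA1). With only the groups compared, 3 were lower with shRNA1 and 0 differed between the lines. Without the trend, 4 were lower with shRNA2, 1 with both, and 0 differed between the lines. A fold minimum of 0.5 left 2 lower (shRNA1), 0 lower (shRNA2), 1 higher and 0 lower (average), 0 lower (both) and 0 between the lines. Leaving out 1 library gave 1 to 2 higher and 2 to 8 lower (shRNA1), 1 to 3 and 0 to 13 (shRNA2), 1 to 3 and 3 to 15 (average), 0 to 1 and 0 to 0 (shRNA2 over shRNA1), 1 to 2 and 0 to 6 (both), and 1 to 4 and 0 to 4 (further transport genes). Over all genes, 1.84% to 7.95% were higher and 1.19% to 6.72% lower (shRNA1), and 2.4% to 12.5% and 1.38% to 10.3% (shRNA2). The shares were 3.5% to 13.0% and 2.2% to 11.6% (average), and 1.2% to 5.79% and 0.548% to 4.08% (both). Between the lines they were 0.0279% to 0.353% and 0.0% to 0.52%. The cause was not tested for these shifts, except that a fold minimum leaves fewer calls by construction. Over these settings except the fold minimum of 0.5, fold changes of called members stayed called in 363 cases and lost the call in 117, with no change of sign. These cases include the fit without the libraries numbered 0. In the same settings the uncalled values of Tmed4, Copz1 and Gbf1 changed sign in 11 of 96 cases, within -0.070 to 0.092. The read depth is unknown, so its effect on small differences was not analysed here.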
